A study of Mus musculus with 4 samples.

Results

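Hox, T-box and TALE factors are the transcription factors that tell cells of the embryo where they are. The set described here holds every probe set on the array that names 1 gene, where that gene is a numbered member of the Hoxa to Hoxd, Tbx, Meis, Pbx or Irx families. It came to 68 probe sets for 54 genes, of 20380 probe sets with 1 gene symbol and 22690 on the array. Members were chosen by name and not by their signals, although earlier results of these data were known by then. Genes of these families read only by probe sets that name several genes, or not found among the annotated probe sets, were not analysed here.

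HOX proteins carry a homeodomain and are encoded in 4 clusters, where the order of the genes follows the order of their expression from head to tail. TALE proteins (MEIS, PBX and the Iroquois factors IRX) have a homeodomain with an added loop, and MEIS and PBX bind DNA together with HOX proteins. T-box proteins share another DNA-binding domain. In the developing mouse lung Tbx2, Tbx3, Tbx4 and Tbx5 are known from the mesenchyme, where Tbx4 and Tbx5 act in bud formation and branching and Tbx2 and Tbx3 sustain growth. Hoxa5 is known from the mesenchyme of lung and trachea, and Irx genes from the lung epithelium.

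Expression was measured in whole lung on 4 Affymetrix arrays, each hybridised with biotin-labelled total RNA. In the Sftpc-Nmyc group (n = 2), embryos carried a transgene in which 3.7 kb of the human SFTPC promoter and enhancer, active in lung epithelium, drives mouse Nmyc1 (Mycn) joined to EGFP. These embryos came from injection of DNA into (C57BL/6J and DBA/2J) F2 eggs, so each may carry its own insertion. The wild-type group (n = 2) is labelled as normal lung, with no strain given. All titles give embryonic day 18, while the design text places the transgenic embryos slightly later and gives no time for the wild type. The design text calls the 2 arrays of a group biological replicates, and whether each is 1 embryo or a pool is not stated.

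The arrays had median signals of 65.45 to 70.8. Probe set 1425922_a_at for Mycn gave 455.2 and 356 in Sftpc-Nmyc lungs, against 34.7 and 32.1 in wild-type lungs. Another of its probe sets, 1417155_at, went the other way, at 25.1 and 27.2 in Sftpc-Nmyc lungs and 78.7 and 63.5 in wild-type lungs. The lungs also differed in sex-linked signals. Xist (1436936_s_at) had 59.3 and 63.9 in Sftpc-Nmyc lungs against 1707.8 and 1506.1 in wild-type lungs, and the Y-linked Kdm5d (1424903_at) had 70.9 and 82.5 against 7.2 and 14.8. Sex by these signals and genotype cannot be told apart here, nor can genotype and any difference in age or strain between the groups. Of 9 genes that mark lung, all were measured above background, among them Sftpc, the alveolar surfactant gene, at 5788.1 and 4817.4 in Sftpc-Nmyc lungs and 9566.4 and 9545.8 in wild-type lungs.

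How many of the patterning probe sets lay near background depended on the mark used. The mark for background was, on each array, the highest signal of 27 Bacillus control probe sets, which ran from 50.1 to 73.4. Of the 68 probe sets, 38 (55.9%) exceeded it on none of the 4 arrays, against 36.2% of all probe sets with 1 symbol, 30 exceeded it on at least 1 array and 15 on all 4. The count was 32 with the 30th percentile of all probe sets as the mark, and 13 with the median of the Bacillus controls. All later counts near background use the highest control. By gene, 30 of 54 had no probe set above the mark. In Hox paralog groups 9 to 13, the genes known from the trunk, limb and genital regions, 13 of 14 probe sets were near background. The exception was 1 of 2 probe sets for Hoxa9 (1421579_at), at 107 and 87.8 in Sftpc-Nmyc lungs and 104.1 and 52.4 in wild-type lungs. The groups overlapped there, and the other Hoxa9 probe set (1455626_at) stayed between 2.3 and 3.5. In groups 6 to 8 it was 5 of 8, and in groups 1 to 5 it was 7 of 15.

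All 7 Hoxd probe sets were near background, with a range of 0.7 to 48.6, as were 6 of 8 for Hoxc. Among the T-box genes outside the Tbx2 subfamily 9 of 10 probe sets were near background. These included Tbx20, known from heart muscle, Tbx18, known from the outer lining of the heart and the ureter, and Tbx21, which directs T and NK lymphocytes. Irx4, of the heart ventricle, was also near background, at 5.6 to 9.9. Markers of T and NK lymphocytes were near background for 8 of the 10 measured. Of the Pbx4 probe sets both were near background, at 1.2 to 14.7. A signal near background does not show that a gene is silent.

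**Figure D1:**
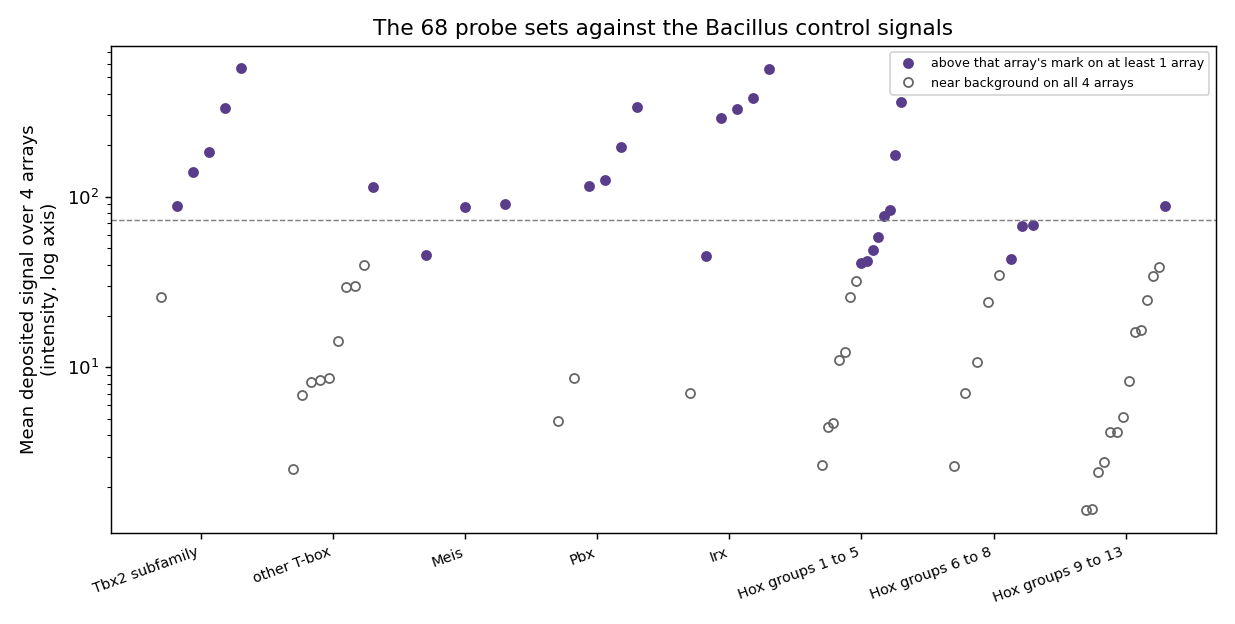
Mean deposited signal over 4 arrays (intensity, log axis) of each of the 68 probe sets, by family or Hox paralog group, with filled points above that array's Bacillus mark on at least 1 array and open points near background on all 4. The dashed line is 73.4, the highest Bacillus signal on any array, and 13 of the 14 points of Hox groups 9 to 13 are open.

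After probe sets with a mean below the 30th percentile were left out, 36 member probe sets for 30 genes were tested with limma, and 32 were not. At a Benjamini-Hochberg adjusted p under 0.05 over all 14266 probe sets tested, 1 member was higher and 11 were lower in Sftpc-Nmyc lungs. The background was 26.4% called in either direction, 13.5% higher and 12.9% lower. The members stood at 33.3% called and 30.6% lower. By gene, Irx2 rose, and Tbx2, Tbx3, Tbx4, Tbx5, Meis1, Meis2, Hoxa5, Hoxb2, Hoxb5 and, by 1 of its 3 probe sets, Pbx2 fell. The median log2 fold change, Sftpc-Nmyc minus wild type on the log2(signal + 5) scale, was -0.46 over the 36 members and -0.01 over all probe sets tested. Groups did not overlap in 25 of 36 members, with Sftpc-Nmyc lower in 22 and higher in 3. Over all probe sets 65.9% did not overlap, 33.2% with Sftpc-Nmyc lower and 32.7% with it higher. The count of lower members was 7 (19.4%) without wild-type replicate 1 and 7 (19.4%) without wild-type replicate 2, where the share lower over all probe sets was 7.45% and 6.19%, and no member was called higher without Sftpc-Nmyc replicate 1 or wild-type replicate 2.

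Brightness bears on these shares. All 12 called members were among the 21 with a mean signal above 73.4, of which 11 were lower and 1 higher. Over all probe sets that bright 32.4% were called, 16.1% lower and 16.4% higher. The median log2 fold change was -0.65 over these 21 members and -0.01 over all probe sets that bright. The mean ran over all 4 arrays, so a member could enter through its wild-type signals. Meis1 (group means 41.1 in Sftpc-Nmyc and 131.8 in wild-type lungs), Meis2, Hoxb5, both called Tbx5 probe sets and the uncalled Hoxb3 had Sftpc-Nmyc means below 73.4. The counts and the median of the 21 therefore do not separate brightness from the falls.

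**Figure D2:**
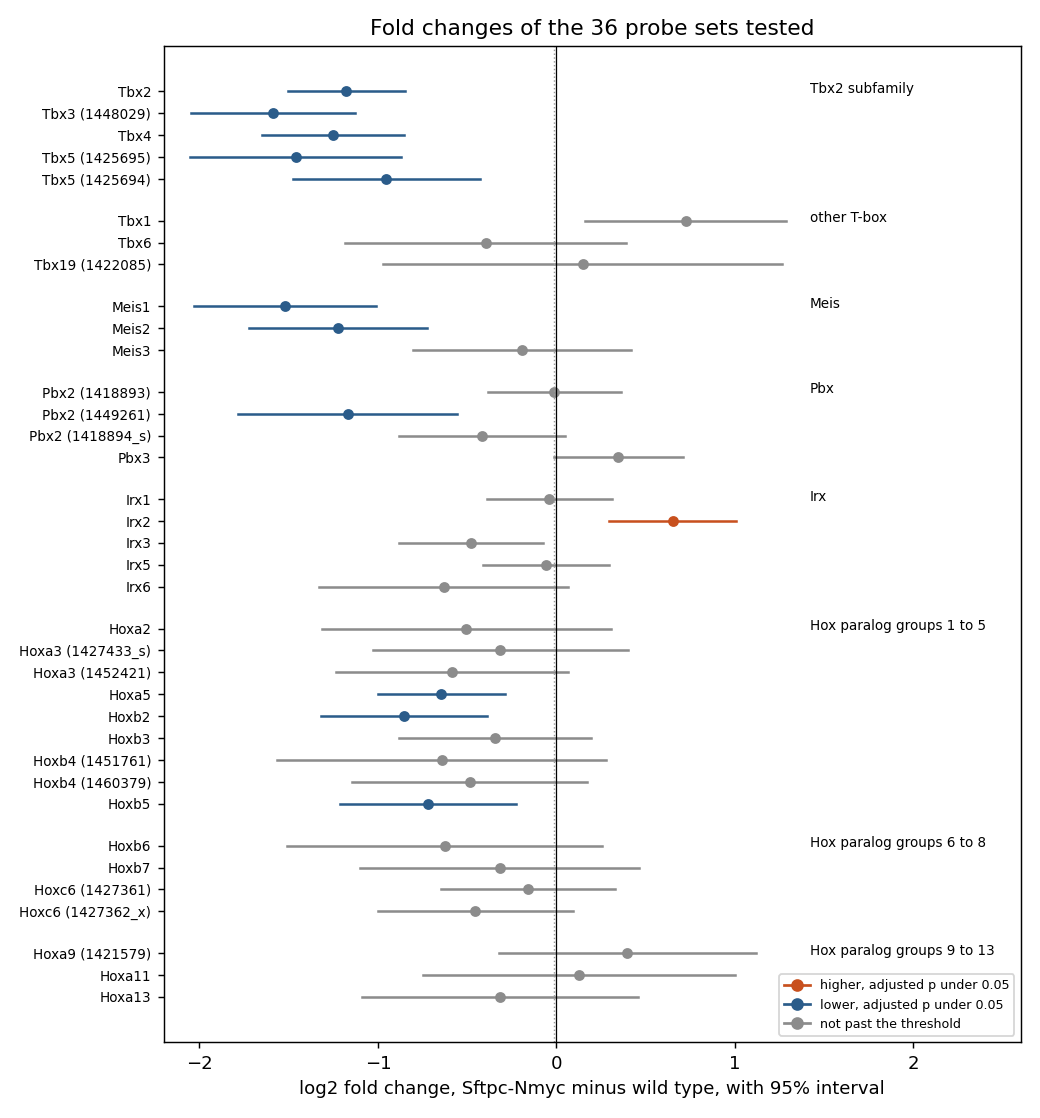
log2 fold change, Sftpc-Nmyc minus wild type, with the 95% interval from limma, for the 36 probe sets tested, in blocks by family (colour marks the call, the dotted line the median of all probe sets at -0.01). The 5 probe sets of the Tbx2 subfamily lie between -1.59 and -0.95, while those of the Irx genes lie on both sides of 0, and Meis1 is drawn at its measured value.

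All 4 genes of the Tbx2 subfamily fell, in 5 of the 5 probe sets tested, with a median log2 fold change of -1.25. Tbx2, a repressor that keeps lung mesenchyme dividing, had signals of 320.5 and 375.6 in Sftpc-Nmyc lungs and 771.7 and 799.9 in wild-type lungs. Both transgenic lungs lay far below both wild-type lungs, which were close to each other. Its log2 fold change was -1.18 ± 0.14 (SE, n = 2 per group, limma adjusted p = 0.0016).

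Tbx3, the closest relative of Tbx2, had 77.2 and 97.4 in Sftpc-Nmyc lungs against 241.4 and 311.4 in wild-type lungs (1448029_at). The change was -1.59 ± 0.20 (limma adjusted p = 0.0019). A second Tbx3 probe set (1439567_at) was near background and not tested, at 14 and 37.4 in Sftpc-Nmyc lungs and 32.3 and 19.6 in wild-type lungs.

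Tbx4, which specifies lung and hindlimb mesenchyme, had 167.7 and 220.6 in Sftpc-Nmyc lungs against 475.5 and 454.2 in wild-type lungs, a change of -1.25 ± 0.17 (limma adjusted p = 0.0025). Tbx5, known from lung, heart and forelimb, was read by 2 probe sets. The first (1425695_at) had 51.7 and 93.7 in Sftpc-Nmyc lungs against 216.4 and 196.3 in wild-type lungs, at -1.46 ± 0.25 (limma adjusted p = 0.0059). Both probe sets separated the groups, as did 65.9% of all probe sets tested. The second (1425694_at) had 56.1 and, below its array's background mark, 56.5, against 99.9 and 139, at -0.95 ± 0.23 (limma adjusted p = 0.019). Its call ended without Sftpc-Nmyc replicate 1 (limma adjusted p = 0.052), Sftpc-Nmyc replicate 2 (0.065) or wild-type replicate 2 (0.10). The calls of Tbx2, Tbx3, Tbx4 and the first Tbx5 probe set held in all 12 alternatives tried.

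These 4 genes lie as neighbouring pairs, Tbx2 beside Tbx4 on chromosome 11 and Tbx3 beside Tbx5 on chromosome 5, with 0 protein-coding genes between them in the RefSeq annotation of GRCm38.p6. Both genes of each pair fell.

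In whole lung, fewer mesenchymal cells and less RNA per cell cannot be told apart. Markers of lung mesenchyme fell along with the Tbx2 subfamily. Those of endothelium, cardiac muscle and alveolar type II cells fell as well, with lower medians (-1.55, -2.31 and -3.18). Of 14 mesenchyme markers, 13 were tested and 11 were lower, none higher, with a median log2 fold change of -1.03. Over all probe sets tested, 12.9% were lower and the median was -0.01. The mesenchyme markers had a summed signal of 15828.8 to 15942.2 in Sftpc-Nmyc lungs and 26369.3 to 28362.7 in wild-type lungs, and none was listed at 0. Foxf1, a transcription factor of lung mesenchyme, fell by 1.12 ± 0.15 and Tcf21, another, fell by 0.86 ± 0.19 (log2, SE, limma adjusted p = 0.0025 and 0.014). Postn, a matrix protein, fell by 1.94 ± 0.15 (limma adjusted p = 0.00038). All 11 endothelial markers fell, with a median of -1.55 and summed signals of 2822.1 to 2910.6 in Sftpc-Nmyc lungs and 7328 to 8232.3 in wild-type lungs. The part of cell composition in the falls of the patterning genes was not tested.

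Tbx2, Tbx3 and Tbx5 are also known from the heart. Of 17 cardiac muscle markers 11 were tested and 9 were lower, none higher, with a median of -2.31. In both groups 5 of the 17 were near background (Nppa, Myl2, Myl3, Pln and Gja5). Over all probe sets tested, 12.9% were lower and the median was -0.01. The cardiac markers had a summed signal of 810.3 to 1095.5 in Sftpc-Nmyc lungs and 2702.2 to 4103.1 in wild-type lungs, and none was listed at 0. Of the defining cardiac genes, Tnnt2 (cardiac troponin T) had 29.6 and 37.7 in Sftpc-Nmyc lungs against 215.1 and 174.1 in wild-type lungs. Nkx2-5 did not pass (-0.33 ± 0.31, limma adjusted p = 0.47). The part of heart tissue in the wild-type signals was not tested.

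**Figure D3:**
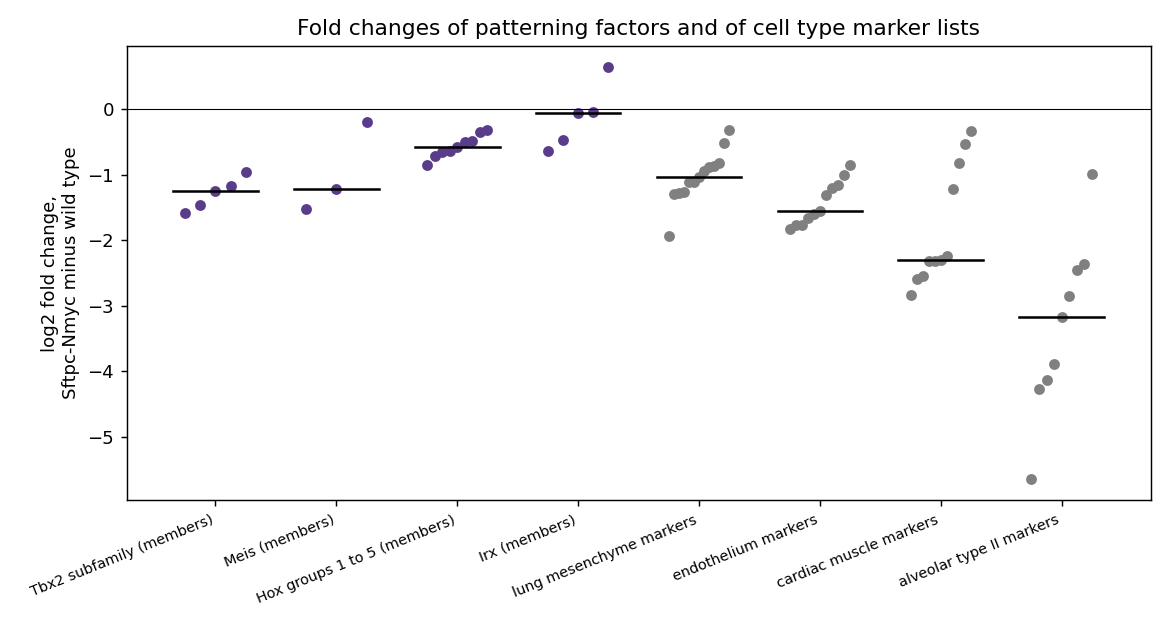
log2 fold change, Sftpc-Nmyc minus wild type, of each tested probe set of the Tbx2 subfamily, Meis, Hox groups 1 to 5 and Irx, beside the tested markers of 4 cell types (1 point per probe set, bars at medians). The medians are -1.25, -1.22, -0.58 and -0.06 for the patterning genes and -1.03 for lung mesenchyme, -1.55 for endothelium, -2.31 for cardiac muscle and -3.18 for alveolar type II.

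Among the other T-box genes 3 of 10 probe sets were tested with limma and none passed, with 1 at an unadjusted p under 0.05. Tbx1, known from the pharyngeal arches and cardiac outflow tract, had 130.5 and 153.6 in Sftpc-Nmyc lungs and 106.8 and 67.6 in wild-type lungs. Both transgenic values lay above both wild-type values, but the difference of 0.72 ± 0.24 missed the threshold (limma adjusted p = 0.062). It passed without wild-type replicate 1, at 1.05 (limma adjusted p = 0.030). Tbx6, which acts in the paraxial mesoderm, and Tbx19, a pituitary factor, stayed near background.

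The Meis genes encode TALE partners of HOX and PBX proteins. Meis1 had 36.3 and 45.9 in Sftpc-Nmyc lungs against 118.7 and 144.9 in wild-type lungs. Both transgenic values lay below their array's background mark and both wild-type values above it, so its fall has only a bound: it was at least 2.01-fold lower in Sftpc-Nmyc lungs, taking the lowest normalized signal above the mark on each transgenic array (measured log2 difference -1.52, limma adjusted p = 0.0030). Meis2 had 54.2 and 47 against 116.3 and 142.7, at -1.22 ± 0.21 (limma adjusted p = 0.0060). For Meis2, 1 of the 2 transgenic values was below the mark. Both genes were called lower in all 12 alternatives, which tested the measured values and not the bound. The median over the 3 Meis probe sets tested was -1.22, and -1.004 with Meis1 at its bound. Meis3 was dim, at 36.8 and 44.2 in Sftpc-Nmyc lungs and 48.6 and 52.3 in wild-type lungs, and did not pass (-0.19 ± 0.26, limma adjusted p = 0.63).

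PBX proteins form the core of many HOX and MEIS complexes. The 3 probe sets for Pbx2 disagreed. The brightest (1418893_at) had 347.9 and 320 in Sftpc-Nmyc lungs and 302 and 379.5 in wild-type lungs, with overlapping groups and a change of -0.01 (95% interval -0.39 to 0.36). 1449261_at had 97.5 and, below its array's background mark, 55.5 in Sftpc-Nmyc lungs against 168.8 and 181.6 in wild-type lungs, at -1.17 ± 0.26 (limma adjusted p = 0.016). The third (1418894_s_at) had 91 and 103.7 against 117 and 150.4 and did not pass (-0.42 ± 0.20, limma adjusted p = 0.16). The call of 1449261_at ended when either wild-type array was left out (limma adjusted p = 0.063 without replicate 1 and 0.092 without replicate 2), so Pbx2 as a gene has no settled direction here. Pbx3 had 223.9 and 214.7 in Sftpc-Nmyc lungs and 181.1 and 161.8 in wild-type lungs, and its difference of 0.35 ± 0.16 did not pass (limma adjusted p = 0.14).

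The Irx genes gave values on both sides of 0. Of 5 probe sets tested 1 was higher and none lower, with a median of -0.06. Irx2 had 437.7 and 368.5 in Sftpc-Nmyc lungs against 264.8 and 241.5 in wild-type lungs, a rise of 0.65 ± 0.15 (limma adjusted p = 0.019). The call ended without Sftpc-Nmyc replicate 1 (0.54, limma adjusted p = 0.092), wild-type replicate 1 (0.72, 0.057) or wild-type replicate 2 (0.58, 0.10). Its neighbour Irx1 had 299.7 and 272.5 in Sftpc-Nmyc lungs and 311.8 and 276.5 in wild-type lungs. The groups overlapped, and the difference of -0.04 had a 95% interval of -0.39 to 0.31. Whether Irx1 and Irx2 differ in response was not tested.

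On chromosome 8, Irx3, Irx5 and Irx6 lie side by side. Irx3 had 449 and 481.7 in Sftpc-Nmyc lungs and 748.3 and 550.3 in wild-type lungs, and the difference of -0.48 ± 0.17 missed the threshold (limma adjusted p = 0.081). It passed without wild-type replicate 2, at -0.70 (limma adjusted p = 0.048). Irx5 had 341.8 and 401.1 in Sftpc-Nmyc lungs and 405.6 and 369.7 in wild-type lungs, at -0.06 (95% interval -0.41 to 0.30). Irx6 was dim and did not pass (-0.63 ± 0.30, limma adjusted p = 0.16). Of the 9 genes that mark lung, 7 were lower and 1 higher, with a median of -1.58. Over all probe sets tested 12.9% were lower and 13.5% higher. The 1 higher was Foxa2, an endodermal transcription factor, at 543.1 and 709.3 in Sftpc-Nmyc lungs against 374.8 and 385 in wild-type lungs. Ager and Scgb1a1 of the same list were lower (-1.59 ± 0.14 and -1.58 ± 0.38, limma adjusted p = 0.00067 and 0.020). All 9 alveolar type II markers measured fell, with a median of -3.18, against 12.9% lower over all probe sets tested. Nkx2-1, the lung's epithelial master regulator, did not pass (0.48 ± 0.18, limma adjusted p = 0.090).

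**Figure D4:**
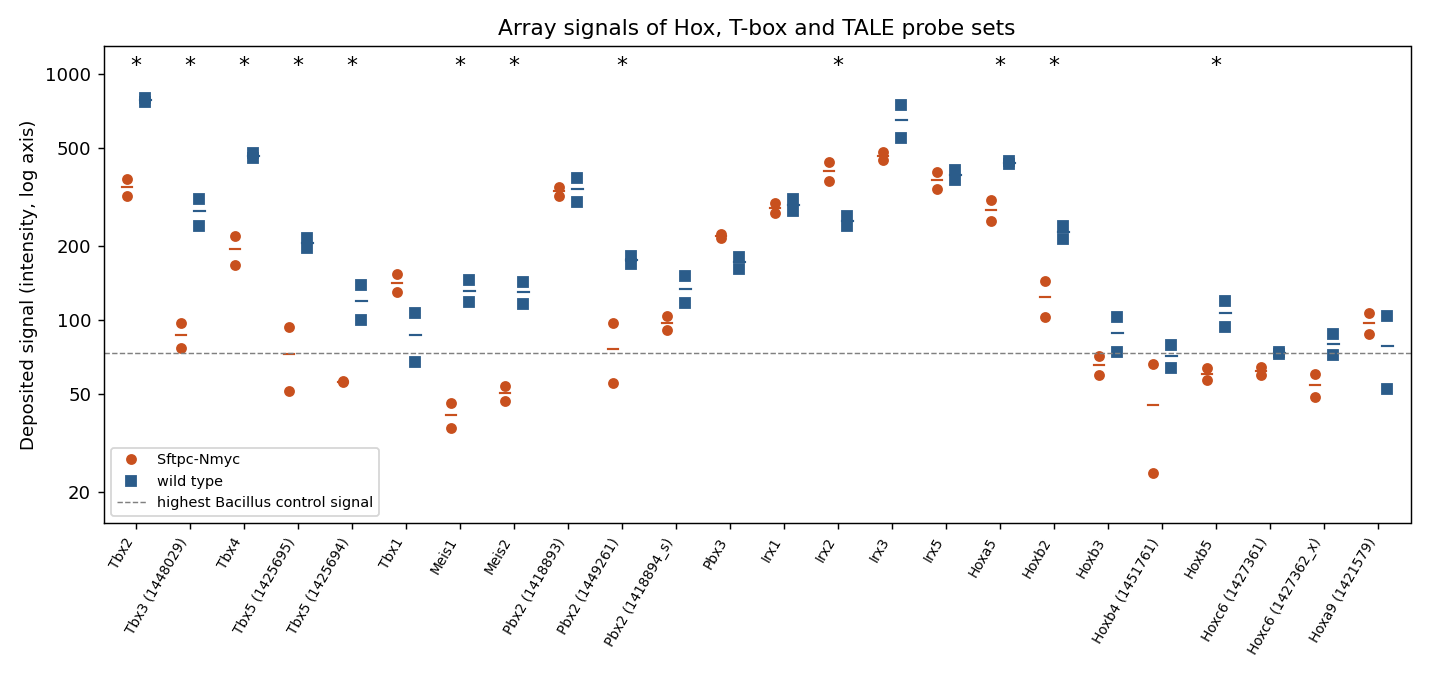
Deposited signals (intensity, log axis) of the 12 called probe sets, the other tested Pbx2 probe sets and the 10 brightest others, with 1 point per array, Sftpc-Nmyc left of wild type, short bars at group means and an asterisk at adjusted p under 0.05. The dashed line is 73.4. Among the called probe sets, both transgenic points of Meis1, Meis2, Hoxb5 and Tbx5 by 1425694_at lie below it. So does 1 transgenic point each of Tbx5 by 1425695_at and Pbx2 by 1449261_at.

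Of the Hox genes, 16 of 37 probe sets were tested, and 3 were lower and none higher (18.8%, against a background of 26.4% called in either direction and 12.9% lower). All 3 were in paralog groups 1 to 5, where 9 probe sets for 7 genes were tested. All 9 had a negative fold change, with a median of -0.58, though Hoxa2 among them was near background. The 4 probe sets tested in groups 6 to 8, for 3 genes, were all negative too, with a median of -0.39. Hoxb7 among them was near background, and the groups overlapped for Hoxb6 and Hoxb7. Over all probe sets tested 50.9% were negative. Hoxa5, which patterns lung and trachea, had 306.3 and 251.6 in Sftpc-Nmyc lungs against 431.2 and 442.2 in wild-type lungs, at -0.65 ± 0.15 (limma adjusted p = 0.019). Hoxb2, known from the hindbrain, had 102.9 and 144.7 against 213.7 and 241.1, at -0.85 ± 0.20 (limma adjusted p = 0.019). Hoxb5, a mesenchymal gene of lung and gut, had 56.9 and, below its array's background mark, 63.9, against 120 and 93.7, at -0.72 ± 0.21 (limma adjusted p = 0.042). All 3 separated the groups, as did 65.9% of all probe sets tested.

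The 3 Hox calls rested on few arrays. That of Hoxa5 also rested on the variance trend, without which it was not called (limma adjusted p = 0.053). Hoxa5 was not called without Sftpc-Nmyc replicate 2 (-0.51, limma adjusted p = 0.092), wild-type replicate 1 (-0.66, 0.080) or wild-type replicate 2 (-0.64, 0.094). Hoxb2 was not called without Sftpc-Nmyc replicate 1 (-0.62, limma adjusted p = 0.079), wild-type replicate 1 (-0.95, 0.056) or wild-type replicate 2 (-0.77, 0.10). Hoxb5 was not called whichever array was left out (-0.89 to -0.56, limma adjusted p = 0.058 to 0.17).

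The remaining Hox probe sets of groups 1 to 5 gave values between -0.64 and -0.31 without passing. Hoxb3 had 59.8 and 71.3 in Sftpc-Nmyc lungs and 102.8 and 74.4 in wild-type lungs (-0.34 ± 0.23, limma adjusted p = 0.31). For Hoxb4, 1451761_at had 24 and 66.4 in Sftpc-Nmyc lungs and 63.9 and 78.9 in wild-type lungs, where the transgenic replicates stood far apart (-0.64 ± 0.40, limma adjusted p = 0.27). It passed without Sftpc-Nmyc replicate 2, at -1.25 (limma adjusted p = 0.047). Hoxa4 (1427354_at), at 3 and 4.5 in Sftpc-Nmyc lungs against 21.1 and 20.8 in wild-type lungs, was too dim to be tested, and with no filter it passed at -1.48 ± 0.28 (limma adjusted p = 0.031), although all 4 values lay below the mark. A second Hoxa4 probe set (1420226_x_at), also near background, had 10.4 and 9.8 in Sftpc-Nmyc lungs and 15.4 and 8.6 in wild-type lungs. The groups overlapped there. In groups 6 to 8, 4 probe sets were tested with limma and none passed, with 0 at an unadjusted p under 0.05. Hoxc6 was read there by 1427361_at, at 64.7 and 59.9 in Sftpc-Nmyc lungs and 74.2 and 72.8 in wild-type lungs (-0.16 ± 0.21), and by 1427362_x_at, at 60.2 and 48.6 against 87.9 and 71.9 (-0.45 ± 0.23). In groups 9 to 13, 3 were tested and none passed, again with 0 at an unadjusted p under 0.05.

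Promoter sequence was at hand for 6 of the 11 called genes. Shown are the 3 of these whose fall held in all 12 alternatives (Tbx4, Meis1 and Meis2) and Irx2, the gene that rose. Each runs from 250 bases before to 50 bases after the annotated start, from RefSeq on GRCm38.p6, written 5′ to 3′ on the gene's strand, and capitals mark the dinucleotide CG.
Tbx4, chr11:85896515-85896814, plus strand: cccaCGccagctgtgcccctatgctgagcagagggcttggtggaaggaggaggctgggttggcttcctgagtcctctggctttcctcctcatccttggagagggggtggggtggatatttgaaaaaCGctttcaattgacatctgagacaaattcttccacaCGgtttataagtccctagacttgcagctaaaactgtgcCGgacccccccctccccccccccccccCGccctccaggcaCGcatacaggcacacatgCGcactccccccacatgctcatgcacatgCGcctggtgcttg
Meis1, chr11:19018920-19019219, minus strand: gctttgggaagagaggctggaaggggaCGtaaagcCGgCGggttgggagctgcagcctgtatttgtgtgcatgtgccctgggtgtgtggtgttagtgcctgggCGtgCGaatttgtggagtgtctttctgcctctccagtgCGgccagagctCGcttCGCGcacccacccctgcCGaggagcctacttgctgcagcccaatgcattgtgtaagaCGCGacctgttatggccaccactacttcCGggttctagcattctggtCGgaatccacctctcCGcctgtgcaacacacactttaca
Meis2, chr2:116064570-116064869, minus strand: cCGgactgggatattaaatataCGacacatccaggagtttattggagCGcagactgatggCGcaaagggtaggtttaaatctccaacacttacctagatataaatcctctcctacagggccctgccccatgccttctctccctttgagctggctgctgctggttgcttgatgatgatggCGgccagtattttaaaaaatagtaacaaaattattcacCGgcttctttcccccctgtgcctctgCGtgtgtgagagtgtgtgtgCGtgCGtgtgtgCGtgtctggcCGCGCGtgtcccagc
Irx2, chr13:72628570-72628869, plus strand: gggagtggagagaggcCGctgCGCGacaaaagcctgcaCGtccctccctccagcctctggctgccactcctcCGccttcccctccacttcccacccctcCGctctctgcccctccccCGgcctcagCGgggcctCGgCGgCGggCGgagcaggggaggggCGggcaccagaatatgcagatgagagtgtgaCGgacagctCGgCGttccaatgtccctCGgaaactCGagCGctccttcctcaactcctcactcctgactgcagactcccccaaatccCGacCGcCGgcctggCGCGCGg
CG occurred 8 times in the Tbx4 window, 15 in Meis1, 13 in Meis2 and 25 in Irx2, against a median of 7 and quartiles of 3 and 20 over 32851 RefSeq promoter windows. On both strands, all 6 windows were searched for the E-box CACGTG bound by MYC and MAX, the T-box core site GGTGTGA, the MEIS site TGACAG and the PBX-HOX site TGATNNAT. None held a match, while the E-box is in 7.15% of all windows, the T-box core site in 3.98%, the MEIS site in 19.2% and the PBX-HOX site in 8.85%. These letters are not in these windows, which says nothing of binding elsewhere.

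Partners and regulators of these families, and the cell type markers above, were read from the brightest probe set per gene. The shares set beside them run over all probe sets tested, bright or dim, so they are not like for like. Of probe sets with a mean signal above 73.4, 32.4% were called and 16.1% were lower. Of 9 tested HOX and TALE partners and related factors, 3 were higher and 2 lower (55.6% called, against 26.4% of all probe sets), with a median of -0.07 against -0.01 over all probe sets. Gmnn (geminin), which restrains DNA replication and also binds HOX proteins, had 209.6 and 224.4 in Sftpc-Nmyc lungs against 49.8 and 74 in wild-type lungs, a rise of 1.80 ± 0.23 (limma adjusted p = 0.0020). Tgif1 and Tgif2, TALE repressors, rose by 0.75 ± 0.19 and 0.88 ± 0.17 (limma adjusted p = 0.025 and 0.0098). Meox1, a mesodermal homeobox gene, fell by 1.02 ± 0.19, and Hopx, of alveolar epithelium and heart, fell by 0.59 ± 0.16 (limma adjusted p = 0.0079 and 0.030). The calls of Gmnn and Meox1 held whichever array was left out. Those of Tgif1, Tgif2 and Hopx did not, with limma adjusted p up to 0.12, 0.062 and 0.16. Pknox1, a TALE relative of MEIS, gave 0.03 ± 0.21. The Cdx genes, which switch on posterior Hox genes, were near background in all 3 cases.

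Among 20 tested chromatin regulators of Hox clusters 3 were higher and 1 lower (20% called, below the 26.4% of all probe sets), with a median of 0.19. Ezh2 and Eed, Polycomb subunits that help keep Hox genes silent, rose by 0.88 ± 0.19 and 0.65 ± 0.16 (limma adjusted p = 0.013 and 0.024). Ash2l, of the complexes that keep them active, rose by 0.99 ± 0.17 (limma adjusted p = 0.0055). Ezh2 was not called without Sftpc-Nmyc replicate 2 or wild-type replicate 2 (limma adjusted p = 0.072 and 0.071). Eed was not called without Sftpc-Nmyc replicate 1, Sftpc-Nmyc replicate 2 or wild-type replicate 2 (0.072, 0.090 and 0.12), and Ash2l was called whichever array was left out. Kdm6a, an X-linked demethylase that opposes Polycomb, had 59.7 and 59.3 in Sftpc-Nmyc lungs against 171.3 and 135 in wild-type lungs, at -1.24 ± 0.20 (limma adjusted p = 0.0042). Kdm6a is known to escape X inactivation, and its level moved with the sex-linked signals given above, so genotype and sex cannot be told apart for it.

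In the retinoic acid axis, which sets Hox expression in the embryo, 9 of 15 measured genes were tested and none passed (limma, median -0.20, 2 at an unadjusted p under 0.05). Aldh1a2, the enzyme that makes retinoic acid in mesenchyme, had 31.5 and 63.8 in Sftpc-Nmyc lungs and 70 and 127.4 in wild-type lungs (-0.91 ± 0.37, limma adjusted p = 0.11). Of 9 measured genes linked to T-box factors in lung mesenchyme or heart, 4 were tested and 3 were lower (75%, against 12.9% of all probe sets), with 5 near background. Wnt2, a mesenchymal Wnt ligand, fell by 1.28 ± 0.20, the ligand gene Bmp4 by 0.92 ± 0.16 and the cell cycle inhibitor Cdkn1a by 1.02 ± 0.18 (limma adjusted p = 0.0039, 0.0057 and 0.0060). TBX2 and TBX3 are known to repress Cdkn1a, and Wnt2 is on the mesenchyme marker list too. Of T-box genes outside the numbered names, Eomes and Tbr1 were near background and Mga did not pass (0.05 ± 0.22, limma adjusted p = 0.88).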

How the data were processed

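Per the labels' protocols, whole-lung RNA of 2 Sftpc-Nmyc and 2 wild-type samples was purified by RNeasy and given biotin by an Affymetrix kit. The authors deposited linear intensities, with 1 value for each probe set on each array. How they were background-corrected and scaled is not given in the sources used, and detection calls were not used here. Names come from the platform's probe annotation, and all 68 members matched RefSeq by gene identifier with the same symbol.

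Values under 1 were set to 1, 5 was added, log2 was taken and arrays were quantile normalized over non-control probe sets. Probe sets with 1 symbol and a mean at or above the 30th percentile (14266) entered limma 3.58.1 in R 4.3.3 (lmFit, eBayes with trend), fitting group alone. Benjamini-Hochberg adjustment ran over all 14266, errors after ± are limma standard errors, and intervals are at 95%. The median standard error was 0.20, and 4 arrays limit the precision. The fit was also run on simulated data with 200 changed probe sets. That is far fewer than were called here, so the simulation does not gauge the error rate of these calls. The offset understates changes of dim genes. Signal depends on a probe set's own probes, so levels of different genes were not tested against each other. Probe sets ending in _s_at or _x_at may read more than 1 transcript.

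Full values are given for every called member, other tested probe sets of those genes and the 10 brightest others. Of other genes, Mycn and up to 4 called members of each list are named, and further ones were named after their values were seen. Members and lists were chosen with earlier results of these data known. Equal replicate numbers did not pair the arrays by label. Alternatives changed the offset, normalization, filter, probe set choice, variance trend, replicate block and arrays.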

Additional observations from a re-analysis of the deposited data

How the results depend on the processing

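The 12 alternatives turned no called member round, and 6 of the 12 called probe sets (Tbx2, Tbx3, Tbx4, Tbx5 by 1425695_at, Meis1 and Meis2) were called in all of them. Without a variance trend 0 member probe sets and 0 member genes were higher, and 10 member probe sets were lower, Hoxa5 being lost. With 1 array left out, member probe sets numbered 0 to 1 higher and 7 to 9 lower, member genes 0 to 1 higher and 6 to 9 lower, all probe sets 1119 to 1331 higher and 883 to 1455 lower, and partner list genes 2 to 5 higher, against 6 with all arrays. With the brightest probe set per gene 1276 were higher over all, since fewer probe sets were tested. With the replicate block 1 member probe set was higher and 10 lower, Hoxb5 being lost (limma adjusted p = 0.066), and 1639 and 1540 over all. Deviations of same-numbered arrays from their group means correlated at -0.038 over the probe sets tested. This is a single correlation over all of them, which cannot exclude pairing in part of the genes. Against the median Bacillus signal in place of the highest, 13 members were near background. With 1 array left out, 4 differences that did not pass the test changed sign: Pbx2 by 1418893_at (-0.171 to 0.139), Irx5 (-0.178 to 0.0575), Irx1 (-0.122 to 0.0441) and Hoxa9 by 1421579_at (-0.0634 to 0.871, against 0.40 with all arrays, negative without wild-type replicate 2). With no filter on dim probe sets, 8 members were lower, without Tbx5 by 1425694_at, Pbx2, Hoxb2 and Hoxb5 and with Hoxa4 by 1427354_at. The causes were not tested. Signals near the Bacillus controls limit what can be said of posterior Hox genes.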
